A study of Arabidopsis thaliana with 12 samples.

Results

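The interaction of SR34A loss with abscisic acid (ABA) asks of each gene and splicing event whether its response to the hormone differs between sr34a-1 and wild type. It is the ABA response in sr34a-1 minus the ABA response in WT, and it uses 12 of the 12 libraries of the study: all groups enter because each response needs its own mock group. WT was the Arabidopsis thaliana accession Col-0, and sr34a-1 carried a mutation in SR34A (AT3G49430), which encodes a serine/arginine-rich (SR) protein. Stratified seeds of both genotypes grew on MS medium in continuous white light for 44 h and were then moved for 2 h to MS medium without hormone (mock) or with 0.5 µM ABA. The 4 groups of WT mock, WT ABA, sr34a-1 mock and sr34a-1 ABA had 3 libraries of polyadenylated RNA each, taken from germinated seeds, as the sample titles name them. The labels call the replicates biological without saying whether they came from separate sowings, so p-values measure the spread between these libraries. A single mutant line was compared, and no complemented or further mutant line was analysed here.

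ABA is the hormone that holds seed germination and seedling establishment back under water deficit. Its PYR/PYL receptors, when bound to ABA, inhibit the clade A protein phosphatases 2C (PP2Cs), which frees the SnRK2 kinases to activate bZIP transcription factors such as ABI5, and these bind promoter elements built around the core ACGTG. ABA raises the transcripts of the same PP2Cs, which is a feedback on the pathway. SR proteins bind pre-mRNA and take part in the choice of splice sites.

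Total counts ranged from 61128187 to 83268758 per library. SR34A itself was at 101, 93.5 and 93.9 CPM (counts scaled to a library of 1e+06) in the WT mock libraries and at 96.8, 93.4 and 89.9 CPM with ABA, against 13.8, 12.4 and 13.4 CPM in sr34a-1 mock and 11.96, 12.01 and 14.2 CPM in sr34a-1 with ABA. It was lower in sr34a-1 without overlap in either treatment, and its interaction was -0.01 ± 0.09 (log2, SE). Markers of reserve use (ICL, MLS, PCKA), greening cotyledons, root hairs and endosperm were detected in every library. The flower markers AP1 and AG had medians of 0 CPM, the pollen marker VGD1 had 0 counts throughout, and the pollen-type gene AT5G45880 reached 0.111 CPM at most. Marker classes moved with the genotype. The summed level of 2 storage protein genes (CRA1, CRC) was 80.3 to 120 CPM in WT against 186 to 261 CPM in sr34a-1 in mock, and 160 to 243 CPM against 359 to 541 CPM with ABA. The summed level of 2 endosperm genes (EXPA2, EPR1) was 75.9 to 82.5 CPM against 143 to 170 CPM in mock, and 86.5 to 96.1 CPM against 153 to 195 CPM with ABA. The summed level of 2 cotyledon genes (LHCB1.1, RBCS-1A) was 6679 to 7421 CPM against 4546 to 5374 CPM in mock, and 6962 to 8229 CPM against 5059 to 5362 CPM with ABA. That sum is mostly RBCS-1A, because LHCB1.1 reached 558 CPM at most, so it does not show both genes to be lower. The 3 reserve use genes summed to 12335 to 14788 CPM against 16512 to 19086 CPM in mock and 14285 to 15854 CPM against 18093 to 19776 CPM with ABA, and the 2 root hair genes to 67.1 to 81.2 CPM against 84.5 to 94.7 CPM in mock and overlapping ranges with ABA. Of the endosperm genes, 1 (EXPA2) had an unadjusted interaction p under 0.05. The part of these markers in the interaction was not tested, and in whole germinated seeds fewer cells of a type cannot be told apart from less RNA per cell.

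No gene passed the test of the interaction in the fit without a replicate block, which gave the edgeR adjusted p-values printed for single genes below. Of 21256 genes tested with edgeR (quasi-likelihood, Benjamini-Hochberg adjusted), 0 (0%) had an adjusted p under 0.05, and the smallest adjusted p was 0.0501, shared by the laccase gene LAC7 and the stress gene KIN1. Without adjustment, 1374 genes (6.46%) had a p under 0.05, 764 (3.59%) with an interaction below 0 and 610 (2.87%) with one above 0. limma-voom called 0 genes as well, while DESeq2 called 35 (0.138% of 25437 tested), of which 28 had a larger and 6 a smaller ABA response in sr34a-1, and edgeR with a replicate block called 74 (0.348%). The responses themselves were broad: 7461 genes (35.1%) changed with ABA in WT and 8514 (40.1%) in sr34a-1. For 18065 genes (85.0%) the 95% confidence interval of the interaction lay within a log2 of -1 to 1, and for the other 3191 genes it reached beyond one of these bounds.

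Because nothing passed without the block, "smaller" and "larger" below give only the sign of the value. The direction of each gene's response was read from the ABA response averaged over both genotypes, which is a separate contrast of the balanced design, and 10874 genes (51.2%) passed its test, 5258 of them higher with ABA (24.7%) and 5616 lower (26.4%). An interaction against that direction is a smaller response in sr34a-1 and one along it a larger response.

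**Figure D1:**
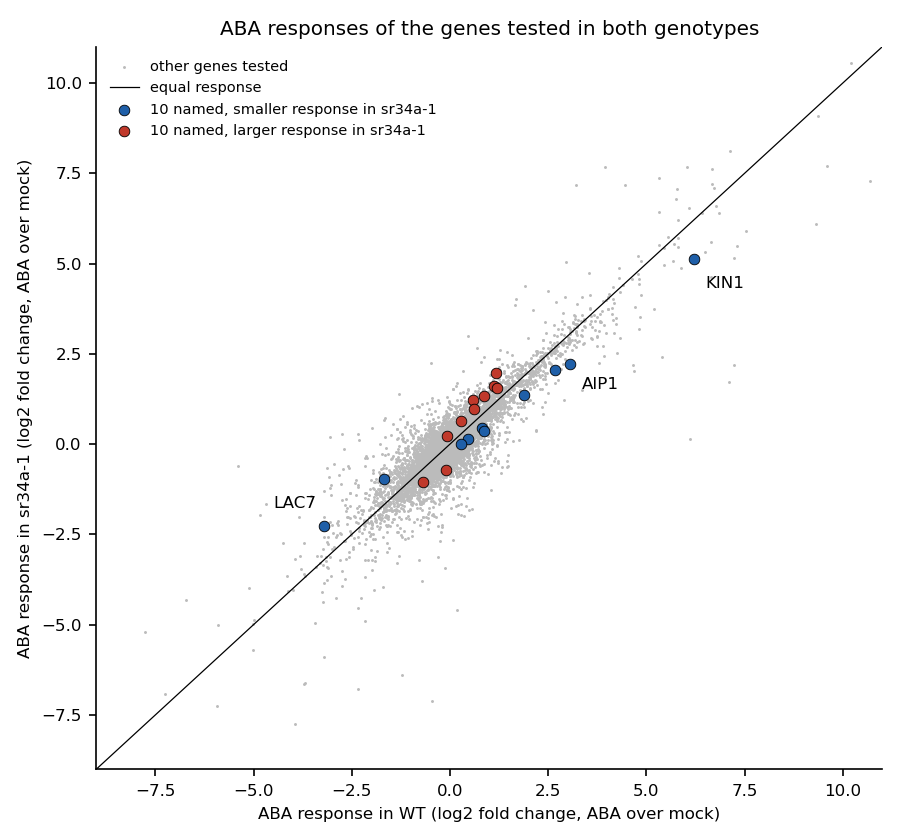
ABA response of each of the 21256 genes tested in WT (horizontal axis) and in sr34a-1 (vertical axis), both as log2 fold change of ABA over mock. Points lie along the line of equal response; the 10 genes named for a smaller response in sr34a-1 (blue) and the 10 named for a larger one (red) sit beside it, with KIN1 at 6.21 in WT and 5.12 in sr34a-1 and LAC7 at -3.20 and -2.28.

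The genes that carried the smallest p-values with a smaller response were LAC7, KIN1 and AIP1. The 250 bases before their annotated starts are shown with those of KIN2, the tandem neighbour of KIN1, because ABA-responsive promoters are read through the core ACGTG. Capitals mark every ACGTG, or its reverse complement CACGT; the bases are from the RefSeq assembly TAIR10.1, 5′ to 3′ on the strand of the gene.
KIN1 (chr5:5209467-5209716, plus strand): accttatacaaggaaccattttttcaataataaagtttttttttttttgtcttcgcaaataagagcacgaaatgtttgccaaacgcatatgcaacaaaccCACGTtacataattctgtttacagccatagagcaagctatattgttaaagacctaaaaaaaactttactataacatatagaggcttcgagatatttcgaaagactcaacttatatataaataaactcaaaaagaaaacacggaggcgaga
KIN2 (chr5:5211469-5211718, plus strand): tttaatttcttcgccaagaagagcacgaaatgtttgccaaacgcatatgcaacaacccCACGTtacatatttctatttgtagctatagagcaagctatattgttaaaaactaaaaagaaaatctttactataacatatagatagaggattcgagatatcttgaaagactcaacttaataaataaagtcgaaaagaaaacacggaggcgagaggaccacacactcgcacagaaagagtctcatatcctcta
AIP1 (chr1:2282829-2283078, minus strand): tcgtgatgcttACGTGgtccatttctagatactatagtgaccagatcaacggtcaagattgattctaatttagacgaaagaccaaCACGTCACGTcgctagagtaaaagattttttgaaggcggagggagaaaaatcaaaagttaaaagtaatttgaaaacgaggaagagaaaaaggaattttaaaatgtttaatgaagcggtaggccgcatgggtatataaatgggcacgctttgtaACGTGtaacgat
LAC7 (chr3:2830656-2830905, minus strand): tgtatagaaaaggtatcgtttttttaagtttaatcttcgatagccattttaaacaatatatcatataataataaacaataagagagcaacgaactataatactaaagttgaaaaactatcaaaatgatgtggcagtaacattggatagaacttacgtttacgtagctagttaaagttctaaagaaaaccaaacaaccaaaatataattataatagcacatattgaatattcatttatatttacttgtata

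KIN1 and KIN2 each held 1 match, at 150 and 192 bases before the start, AIP1 held 4, and the ABA-lowered LAC7 held 0 in this window. Among 26699 protein-coding genes of the nuclear chromosomes 23.1% had at least 1 match in the same window, and among genes higher with ABA by an averaged log2 of at least 2 the share was 58.6%. Within that strongly induced group, the motif was in 59.9% of 197 promoters of genes with a smaller response in sr34a-1 and in 56.6% of 129 with a larger response. A match is a stretch of letters, and binding there was not measured.

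KIN1 (AT5G15960) encodes a small hydrophilic stress protein. It was at 0.767, 0.750 and 1.11 CPM in WT mock and at 61.9, 69.4 and 64.2 CPM in WT with ABA, against 2.29, 2.67 and 2.29 CPM in sr34a-1 mock and 79.3, 86.8 and 87.1 CPM in sr34a-1 with ABA. The sr34a-1 libraries lay above the WT libraries in both treatments without overlap, by a log2 of 1.46 in mock and 0.37 with ABA. The ABA response was thus 6.21 ± 0.11 (log2, SE) in WT and 5.12 ± 0.09 in sr34a-1, an interaction of -1.09 ± 0.15 (edgeR, adjusted p = 0.0501). On the CPM scale the order was the other way: WT gained 64.3 CPM and sr34a-1 gained 82.0 CPM. KIN2 (AT5G15970) went in WT from 15.9 ± 3.22 to 239 ± 14.9 CPM, and in sr34a-1 from 27.4 ± 3.89 to 267 ± 3.40 CPM (SD, n = 3), an interaction of -0.63 ± 0.16 (edgeR, adjusted p = 0.485). KIN1 and KIN2 are near-identical tandem copies, so the counting could have divided their reads, and both values are uncertain to that extent.

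AIP1 (AT1G07430, also HAI2) encodes a highly ABA-induced clade A PP2C. It was at 1.09, 1.14 and 1.06 CPM in WT mock and 8.38, 9.44 and 9.67 CPM in WT with ABA, and at 2.75, 2.62 and 3.08 CPM and then 12.4, 12.7 and 14.4 CPM in sr34a-1. As for KIN1, sr34a-1 was higher than WT without overlap in mock and with ABA, and the mock difference was the larger on the log2 scale, 1.36 against 0.52. The response was 3.06 in WT and 2.22 in sr34a-1, an interaction of -0.84 ± 0.15 (edgeR, adjusted p = 0.116), while WT gained 8.07 CPM and sr34a-1 gained 10.3 CPM.

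LAC7 (AT3G09220), a laccase of the family that oxidises phenolics in the cell wall, fell with ABA. WT mock libraries were at 147, 160 and 161 CPM and sr34a-1 mock libraries at 71.2, 83.6 and 83.9 CPM, and with ABA both genotypes reached overlapping ranges, 15.7 to 19.4 CPM in WT and 14.8 to 18.3 CPM in sr34a-1. The genotypes were separate in mock and overlapped with ABA. The response was -3.20 in WT and -2.28 in sr34a-1, an interaction of 0.92 ± 0.13 (edgeR, adjusted p = 0.0501).

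The other 7 genes of the 10 named for a smaller response shared this form in part. Of the 10, 9 differed between the genotypes in mock (7 higher in sr34a-1) and 4 with ABA, where 16.4% and 22.1% of all genes did so; the mock value enters the interaction, so the first count is linked to the choice of the genes. CHI (AT2G43570), a chitinase, had mock levels of 2.74 ± 0.267 CPM (WT) and 3.97 ± 0.121 CPM (sr34a-1) and was at 10.1 ± 0.567 and 10.1 ± 0.581 CPM with ABA (SD, n = 3). GSTU22, a tau class glutathione S-transferase, was at 11.8 ± 0.525 and 14.5 ± 0.432 CPM in mock and 20.7 ± 0.736 and 19.7 ± 1.04 CPM with ABA. ASPGB1, an asparaginase, was at 7.56 ± 0.744 and 10.5 ± 0.947 CPM in mock and 13.7 ± 0.822 and 13.5 ± 0.888 CPM with ABA. In these 3 genes the groups were apart in mock and overlapped with ABA. PSAT1, a phosphoserine aminotransferase of serine synthesis, rose with ABA in WT from 80.9 ± 3.58 to 98.7 ± 4.98 CPM and had 89.0 ± 1.82 and 89.96 ± 0.951 CPM in sr34a-1. PSAT1 overlaps another gene and strand use in the counting is not stated, so its value is uncertain.

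ChiC (AT4G19810), a chitinase of another family, was the exception among the 10, because its mock levels did not differ in the test. It had mock levels of 9.90, 9.70 and 9.41 CPM (WT) and 10.7, 9.22 and 10.1 CPM (sr34a-1), and rose to 51.9, 69.9 and 62.6 CPM in WT and to 37.2, 44.7 and 42.6 CPM in sr34a-1. The genotypes overlapped in mock and were apart with ABA. The interaction was -0.62 ± 0.14 (edgeR, adjusted p = 0.33). AT5G46960, an invertase or pectin methylesterase inhibitor, fell with ABA in WT from 39.2 to 12.2 CPM, and in sr34a-1 from 29.4 to 15.02 CPM, and the lectin gene AT1G53070 rose in WT from 26.2 to 36.1 CPM, and in sr34a-1 from 31.1 to 34.2 CPM.

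**Figure D2:**
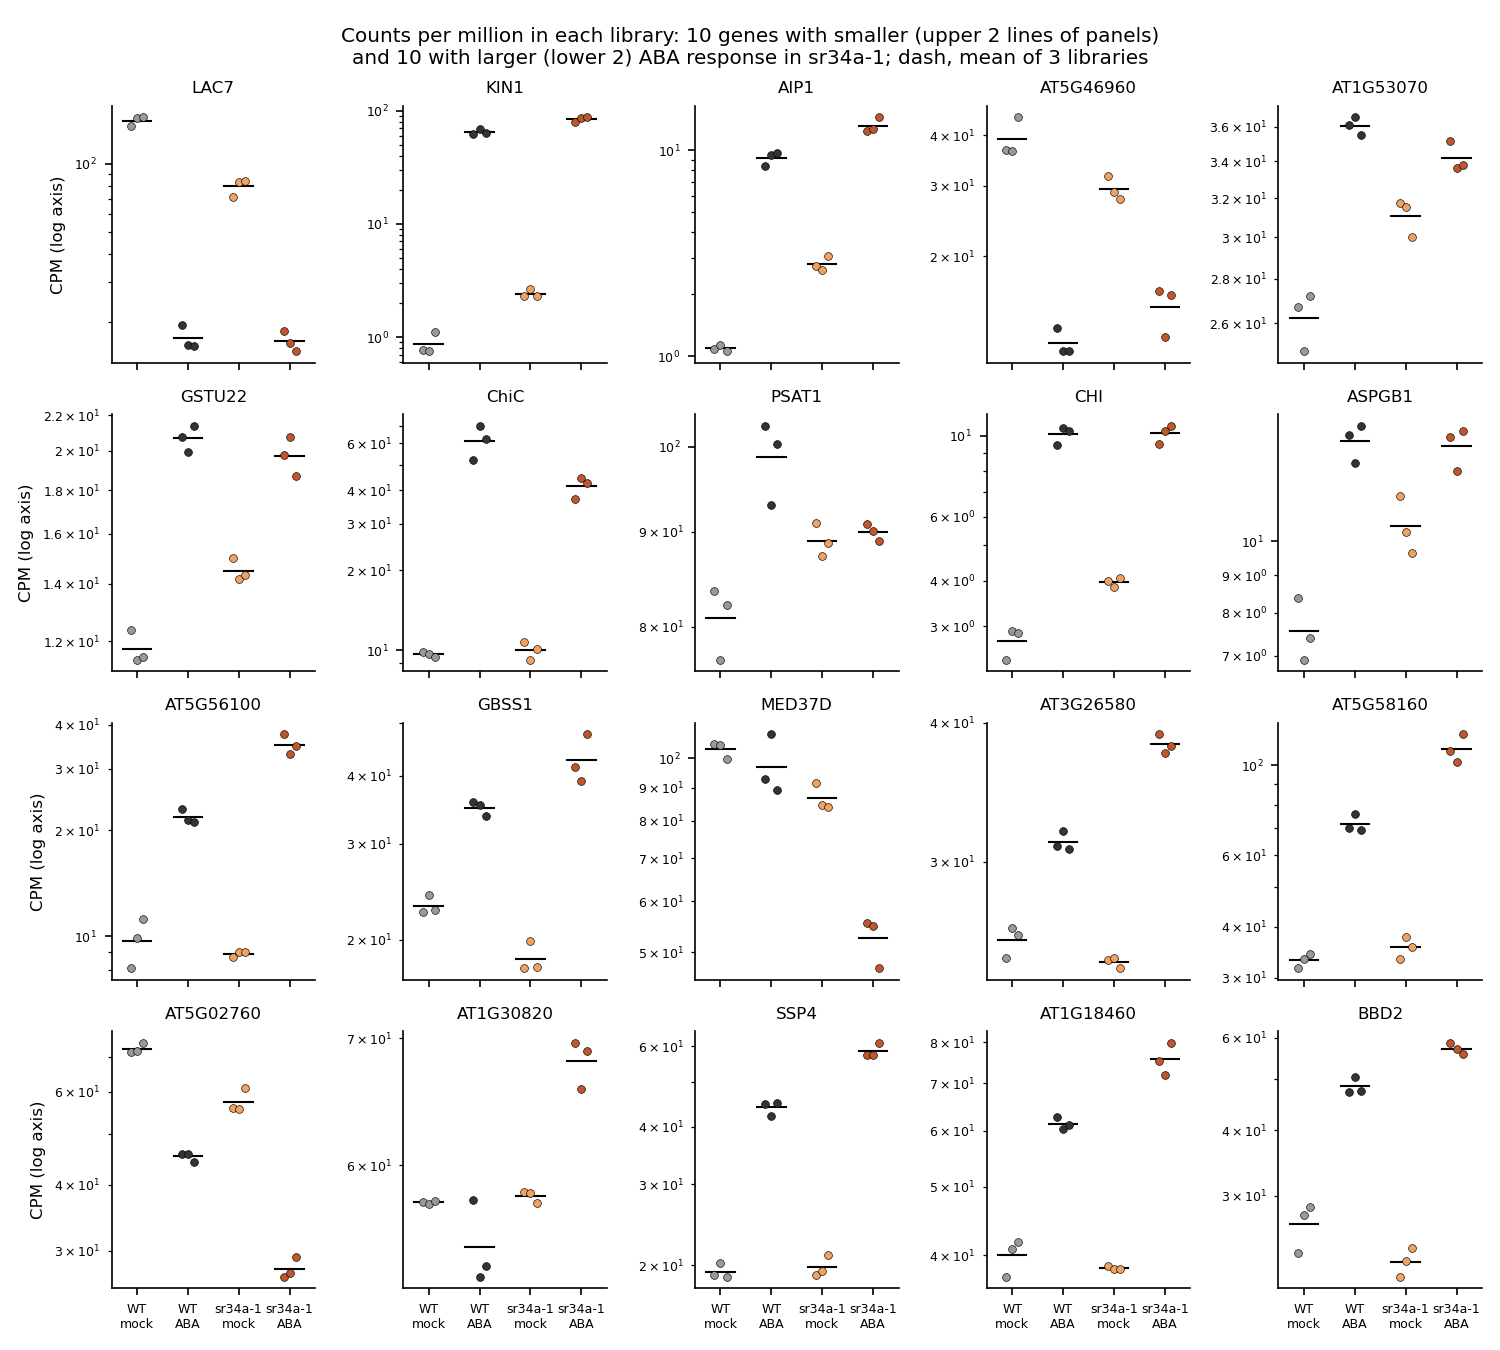
CPM on log axes in each of the 12 libraries (points; dash, mean of 3) for the 10 genes named for a smaller response in sr34a-1 (upper 2 lines of panels) and the 10 named for a larger one (lower 2). In the upper panels the genotypes lie apart mostly in mock, as for LAC7 and KIN1, and in the lower panels mostly with ABA, as for GBSS1 and AT5G56100; the genes were chosen on this contrast.

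The 10 genes named for a larger response had the reverse form. All 10 differed between the genotypes with ABA, 8 of them higher in sr34a-1, and 4 differed in mock, all lower in sr34a-1, where 22.1% and 16.4% of all genes differed. The level with ABA enters the interaction, so the first count is linked to the choice of the genes. GBSS1 (AT1G32900), the granule-bound starch synthase that makes amylose, was at 22.5, 24.2 and 22.6 CPM in WT mock and 35.7, 35.3 and 33.8 CPM with ABA, against 17.7, 19.9 and 17.8 CPM and then 41.5, 39.2 and 47.6 CPM in sr34a-1. The sr34a-1 libraries were below WT in mock and above it with ABA, without overlap in either. The interaction was 0.61 ± 0.10 (edgeR, adjusted p = 0.0956). AT5G56100, annotated as a glycine-rich protein or oleosin, went in WT from 9.73 ± 1.54 to 21.9 ± 0.989 CPM, and in sr34a-1 from 8.92 ± 0.182 to 35.1 ± 2.34 CPM, an interaction of 0.81 ± 0.13 (edgeR, adjusted p = 0.0956); it overlaps a neighbouring gene.

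MED37D (AT5G02490), an Hsp70 chaperone gene, had no call for ABA in WT and fell in sr34a-1. It was at 105, 105 and 99.8 CPM in WT mock, 92.9, 109 and 89.4 CPM in WT with ABA, 91.6, 84.8 and 84.2 CPM in sr34a-1 mock and 55.5, 54.9 and 47.2 CPM in sr34a-1 with ABA. The WT groups overlapped and the sr34a-1 groups did not. The interaction was -0.64 ± 0.10 (edgeR, adjusted p = 0.0956). AT5G02760, a PP2C outside clade A, fell in both genotypes, in WT from 72.5 to 45.3 CPM, and in sr34a-1 from 57.5 to 27.7 CPM, and overlaps a neighbour. SSP4 and AT1G18460, among the next 6, overlap neighbours too. The other 6 rose with ABA in sr34a-1 and had interactions of 0.31 to 0.51: AT3G26580 (a tetratricopeptide repeat protein), AT5G58160 (annotated as actin binding), the CTP synthase AT1G30820, the phosphatase SSP4, the hydrolase AT1G18460 and BBD2, annotated as wound-responsive. AT5G58160, for example, was at 33.1 and 35.6 CPM in mock and 71.8 ± 3.63 and 110 ± 8.82 CPM with ABA in WT and sr34a-1 (SD, n = 3).

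The genes without a call for the averaged response that were also named are 5. SUS2, a sucrose synthase, was at 2.27, 2.81 and 2.42 CPM in WT mock, 2.29, 1.79 and 1.64 CPM in WT with ABA, 2.55, 2.16 and 2.52 CPM in sr34a-1 mock and 3.23, 3.44 and 3.88 CPM in sr34a-1 with ABA. Only the last group stood apart from the other 3. Its interaction was 0.94 ± 0.21 (edgeR, adjusted p = 0.302). AIL6, an AP2-type transcription factor of meristems that overlaps a neighbour, fell in WT by a log2 of -0.26 and had 0.11 without a call in sr34a-1. The uncharacterised gene AT1G50290 had 0.69 in WT, BLOS2 had 0.38 and AT5G28150 had 0.06, against -0.41, -0.25 and -0.20 in sr34a-1.

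The share of smaller responses depended on the size of the response and on the scale. Of 5258 genes higher with ABA, 2444 (46.5%) had a smaller log2 response in sr34a-1, and of 5616 genes lower with ABA, 2083 (37.1%) did, so that larger responses were the more frequent in both. Unadjusted p-values under 0.05 fell in the same direction, with 189 smaller (3.59%) against 330 larger (6.28%) among the ABA-higher genes. Among the ABA-lower genes they were 101 (1.80%) against 316 (5.63%). Of all genes, 54.5% lay below 0, and 3.59% below and 2.87% above had such a p. Below 0 is a smaller response for ABA-higher genes and a larger one for ABA-lower genes. The medians were close to equal responses, 0.01 and 0.04 log2 towards a larger response. Among the 330 genes higher by an averaged log2 of at least 2, however, 200 (60.6%) had a smaller response, with a median of -0.08. Among them 30 smaller (9.09%) and 11 larger (3.33%) responses had an unadjusted p under 0.05, beside 3.59% and 2.87% of all genes. Within each set of same-numbered libraries, on log2 CPM with an offset added, the medians of these genes ran from -0.05 to 0.05, on both sides of 0. That measure differs from the edgeR values behind the median of -0.08, so these medians do not compare replicates alone. In CPM, only 26.4% of the 330 increased by less in sr34a-1 than in WT, and 132 had a smaller log2 response together with a larger increase in CPM. On log2(cRPKM + 1) the share with a smaller response was 43.9%, and without replicate 1 of WT mock it was 52.1%.

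These strongly induced genes were already higher in sr34a-1 before ABA. In mock, 251 of the 330 (76.1%) had a higher value in sr34a-1, with a median difference of 0.67 log2, where 53.9% of all genes did, with a median of 0.02. The test called 137 of them higher in sr34a-1 mock and 3 lower, against 8.42% and 7.99% of all genes. With ABA the median difference was 0.51 log2, 244 (73.9%) were higher in sr34a-1, and 162 were called higher and 8 lower, against 11.1% and 11% of all genes. KIN1 and AIP1 are 2 of these genes. A mock level that is higher in sr34a-1 lowers the interaction by construction unless the level with ABA is higher by as much.

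**Figure D3:**
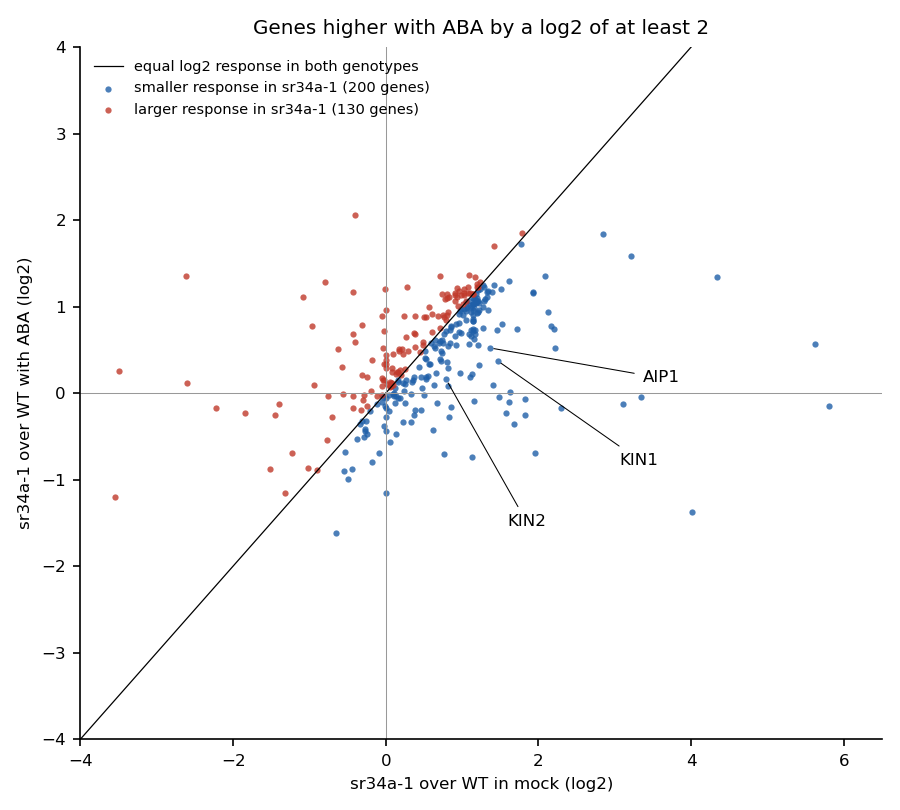
Difference between sr34a-1 and WT in mock (horizontal axis, log2) and with ABA (vertical axis, log2) for the 330 genes higher with ABA by an averaged log2 of at least 2. Points below the diagonal have a smaller log2 response in sr34a-1 (200, blue) and points above it a larger one (130, red); 251 lie to the right of 0.

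The core ABA pathway is taken by role, from phosphatases to receptors. All 9 clade A PP2Cs rose in WT and all 9 in sr34a-1, where 18.2% and 19.4% of all genes rose, with median responses of 3.06 and 2.71 and a median interaction of 0.01, whose sign changed without single libraries. Apart from AIP1 their interactions ran from -0.31 (HAI3) to 0.40 (HAI1), and none had an unadjusted p under 0.05. ABI2 was at 4.86 CPM (mock) and 42.3 CPM (ABA) in WT, against 5.12 and 44.8 CPM in sr34a-1, an interaction of 0.01 ± 0.11. AHG1 was at 2.35 and 22.3 CPM in WT, against 4.89 and 46.6 CPM in sr34a-1, also 0.01 ± 0.15, with higher levels in sr34a-1 in both treatments. HAI3, ABI2, HAI1 and AHG1 are given here as members of this list and were picked after their values were seen.

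Among the group A bZIP factors, 7 of 9 rose in each genotype, where 18.2% (WT) and 19.4% (sr34a-1) of all genes rose. Of the 9, 7 had an interaction above 0 and 2 below, with a median of 0.12 (0.04 to 0.19 over 19 alternatives, lowest without replicate 3 of sr34a-1 ABA). The values ran from -0.10 to 2.52, the highest from DPBF2, below 1 CPM in every group mean, and 3 members (33.3%) lay above 0 at an unadjusted p under 0.05, where 2.87% of all genes did: DPBF4, DPBF3 (0.15) and ABF4 (0.21). DPBF4 (also EEL), a bZIP factor of late seed development, was at 5.72, 6.65 and 6.67 CPM in WT mock and 7.91, 8.41 and 7.88 CPM with ABA, and at 7.15, 7.29 and 7.47 and then 12.03, 11.98 and 12.3 CPM in sr34a-1. Its sr34a-1 libraries with ABA stood above the other 3 groups. The interaction was 0.39 ± 0.10 (edgeR, adjusted p = 0.546), and DPBF4 overlaps a neighbour. ABI5, the main ABA factor of germination, rose in WT from 13.6 to 101 CPM, and in sr34a-1 from 26.4 to 190 CPM, with an interaction of -0.04 ± 0.13, and was picked after its values were seen. The 10 SnRK2 kinases had interactions of -0.09 to 0.17, 8 of them above 0, and the 4 ABI5-binding proteins, which restrain ABI5, had 0.00 to 0.23. Of all genes, 54.5% lay below 0.

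The 13 ABA receptors tested had a median interaction of -0.01 (above 0 with DESeq2 size factors and on log2(cRPKM + 1)), with 7 below and 6 above 0, and 7 fell in WT and 6 in sr34a-1, where 17% and 20.7% of all genes fell. The values ran from -2.99 (PYL13) to 2.402 (PYL3), both from receptors below 1 CPM in every group mean. At an unadjusted p under 0.05 there were 2 below 0 (PYL13 and PYL1, at -0.22) and 2 above (PYL3 and PYL7), 15.4% each beside 3.59% and 2.87% of all genes. PYL7 was the receptor with an unadjusted p under 0.01. It was at 3.29, 4.78 and 4.71 CPM in WT mock and 5.87, 7.68 and 7.01 CPM with ABA, against 2.698, 3.45 and 2.65 and then 7.02, 8.61 and 7.86 CPM in sr34a-1. The genotypes overlapped in both treatments, and the interaction was 0.74 ± 0.21 (edgeR, adjusted p = 0.576); PYL7 overlaps a neighbour. Of the 12 genes of ABA synthesis and breakdown, 9 rose in each genotype, where 18.2% (WT) and 19.4% (sr34a-1) of all genes rose. Of these 12, 8 had an interaction below 0 and 4 above, with a median of -0.10 (-0.10 to -0.01 over 19 alternatives, the value nearest 0 on log2(cRPKM + 1)). At an unadjusted p under 0.05 there were 0 below 0 and 3 above (25% of members), beside 3.59% and 2.87% of all genes. The breakdown gene CYP707A1, a member picked after its values were seen, was at 67.4 and 309 CPM in WT, against 72.8 and 308 CPM in sr34a-1, an interaction of -0.12. ZEP, which makes the epoxidised carotenoids from which ABA is cut, rose by 1.05 in WT and 1.31 in sr34a-1 (interaction 0.26 ± 0.06; edgeR, adjusted p = 0.30). AAO3, the last oxidase of ABA synthesis, rose by 0.86 and 1.11 and overlaps a neighbour.

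The COR, KIN and RD29 stress genes rose in both genotypes in 7 of 7 cases, where 18.2% (WT) and 19.4% (sr34a-1) of all genes rose. KIN1 and KIN2 were the members with an unadjusted p under 0.05, both below 0 (28.6% of members, beside 3.59% of all genes). The list had a median interaction of -0.11, which turned above 0 without replicate 1 of WT mock or replicate 3 of sr34a-1 mock. The dehydrins (median -0.03) and the late embryogenesis genes (-0.07) rose in 6 of 7 and 11 of 12 cases in each genotype, and both medians turned above 0 without single libraries, among them replicate 1 of WT mock. The storage and oil body genes had a median of 0.12, with 10 of 14 above 0, 10 rising in WT and 11 in sr34a-1. Below 0 lay 28.6% of these members and 54.5% of all genes. The median turned below 0 without replicate 2 of sr34a-1 mock or replicate 3 of sr34a-1 ABA. DREB1B, a cold-response factor, had 0 counts in the WT mock libraries and at most 0.504 CPM anywhere, so its fitted interaction of -5.06 is not a measure of size. POX1, the proline dehydrogenase that breaks proline down, fell in WT from 128 ± 11.3 to 62.9 ± 5.30 CPM, and in sr34a-1 from 123 ± 9.60 to 79.4 ± 7.22 CPM (SD, n = 3), an interaction of 0.39 ± 0.12 (edgeR, adjusted p = 0.58).

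Beyond the ABA pathway, the glutathione S-transferases, which conjugate glutathione to reactive compounds, had an interaction below 0 in 29 of 40 members, and 9 members had an unadjusted p under 0.05 below 0 against 0 above. That is 22.5% of members, where 3.59% of all genes were below 0 at that p. By sign alone, 72.5% of members and 54.5% of all genes lay below 0. The median interaction was -0.12, with a range of -0.17 to -0.10 over 19 alternatives, beside -0.01 for all genes. In WT 14 members rose and 5 fell, and in sr34a-1 12 rose and 7 fell. Of all genes, 18.2% rose and 17% fell in WT, and 19.4% and 20.7% in sr34a-1. GSTU9 was at 1.37, 1.38 and 1.28 CPM in WT mock and 14.5, 14.5 and 13.7 CPM with ABA, against 1.72, 1.47 and 2.02 CPM and then 11.4, 13.2 and 11.3 CPM in sr34a-1. The sr34a-1 libraries were above WT in mock and below it with ABA. GSTU25 fell in both genotypes, in WT from 29.7 to 26.5 CPM, and in sr34a-1 from 34.3 to 23.3 CPM (interaction -0.39 ± 0.08; edgeR, adjusted p = 0.217). GSTF8, which overlaps a neighbour, rose in WT from 564 to 818 CPM, and in sr34a-1 from 730 to 842 CPM. Tandem copies are frequent among these genes, so reads may be shared between members.

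The UDP-glycosyltransferases, which attach sugars to hormones and secondary metabolites, had a median of -0.08 (range -0.12, without replicate 2 of sr34a-1 ABA, to -0.04, without replicate 3 of WT ABA, over 19 alternatives). Of 117 members 78 (66.7%) lay below 0, where 54.5% of all genes did. At an unadjusted p under 0.05 there were 11 below 0 (9.40%, beside 3.59% of all genes) and 3 above (2.56%, near the 2.87% of all genes). GBSS1, the starch synthase above, is a member because the annotation files it among UDP-glycosyltransferases. The other members named were UGT71C1, UGT73B3, UGT73B4 and UGT74B1, with interactions of -0.31, -0.33, -0.25 and -0.23. UGT73B4 overlaps a neighbour. UGT73B3 rose in WT from 19.2 ± 0.367 to 26.5 ± 2.67 CPM and had 19.9 ± 1.62 and 21.9 ± 0.509 CPM in sr34a-1 (SD, n = 3), and overlaps a neighbour. UGT74B1, of glucosinolate synthesis, rose in WT from 43.5 to 51.4 CPM and had 49.9 and 50.3 CPM in sr34a-1.

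Ribosomal protein genes had interactions mostly below 0. Of 257 tested, 216 (84.0%) lay below 0, where 54.5% of all genes did, and 41 above, with values from -0.46 to 0.73. The median was -0.06, with a range of -0.11 (without replicate 1 of WT mock) to -0.02 (without replicate 2 of WT mock) over 19 alternatives. The test called 13 of them higher and 33 lower with ABA in WT, and 10 higher and 76 lower in sr34a-1. Of all genes, 18.2% were called higher and 17% lower in WT, and 19.4% and 20.7% in sr34a-1. At an unadjusted p under 0.05 there were 11 below 0 and 0 above, which is 4.28% of members, near the 3.59% of all genes. These genes come in families of close copies, so single values are uncertain.

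Lists of growth and iron genes had medians below 0. More of their members fell in sr34a-1 than in WT, as among all genes, of which 17% (WT) and 20.7% (sr34a-1) fell. Of all genes, 54.5% lay below 0, and 3.59% below and 2.87% above at an unadjusted p under 0.05. The alpha-expansins, which loosen cell walls, had a median of -0.18 (-0.06 without replicate 2 of WT mock, -0.19 at the lowest) with 15 of 19 below 0 (78.9%), and 10 fell in WT and 11 in sr34a-1; 4 members were below 0 and 1 above at an unadjusted p under 0.05. The auxin-induced SAUR genes had a median of -0.24 (-0.07 on log2(cRPKM + 1), -0.08 without replicate 3 of sr34a-1 ABA, -0.29 at the lowest) with 38 of 53 below 0 (71.7%), and 19 fell in WT and 24 in sr34a-1, with 2 below and 1 above at that p. The A- and B-type cyclins and CDKB kinases, which drive cell division, had a median of -0.07 (-0.02 without replicate 3 and -0.16 without replicate 1 of sr34a-1 mock) with 13 of 21 below 0 (61.9%), and 6 fell in WT and 11 in sr34a-1; 4 were below 0 and 0 above at that p. Among the Aux/IAA repressors, IAA34 fell in WT from 1.97 ± 0.383 to 0.647 ± 0.114 CPM, and in sr34a-1 from 1.66 ± 0.194 to 0.244 ± 0.0425 CPM (SD, n = 3), an interaction of -1.15 ± 0.32 (edgeR, adjusted p = 0.567); it overlaps a neighbour. The SAUR gene AT3G12955 went the other way from its list, rising by 1.01 in WT and 1.45 in sr34a-1. XTH9, a wall-remodelling enzyme, rose by 0.17 in WT and had -0.15 in sr34a-1, and XTH11 had 0.20 and 0.77, of which the second passed the test.

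Iron deficiency genes had a median of -0.23 (-0.11 without replicate 1 of sr34a-1 mock, -0.35 at the lowest) with 12 of 14 below 0 (85.7%), and 6 fell in WT and 9 in sr34a-1, with 1 below 0 at an unadjusted p under 0.05. The nuclear photosynthesis genes had a median of -0.08 with 21 of 22 below 0 (95.5%), where 54.5% of all genes lay below 0. They had 1 such p (4.55% of members, near the 3.59% of all genes), and the median turned above 0 without replicate 2 of WT ABA. The class III peroxidases had -0.12 (-0.04 without replicate 3 and -0.19 without replicate 2 of sr34a-1 ABA) with 37 of 48 below 0 (77.1%), and 4 below and 2 above at that p. DOX1, an alpha-dioxygenase that the annotation files among peroxidases, rose by 0.59 in WT and 0.88 in sr34a-1. The 11 circadian clock genes had 0.06 (0.01 without replicate 1 of sr34a-1 ABA, 0.16 without replicate 1 of sr34a-1 mock) with 9 above 0 and 2 below (18.2%). At that p there were 2 above and 0 below, where 2.87% and 3.59% of all genes were. Among the small heat shock proteins, HSP23.5 was at 17.02 ± 3.32 and 14.4 ± 0.216 CPM in WT and 37.3 ± 5.89 and 20.1 ± 4.16 CPM in sr34a-1 for mock and ABA, HSP18.5 had an interaction of -0.37 and IDM3, a chaperone-like protein of DNA demethylation whose gene overlaps a neighbour, one of 0.45. CYP71B37 (-0.44), CYP96A12 (-0.24) and the aquaporin TIP4-1 (-0.22) complete the named members.

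**Figure D4:**
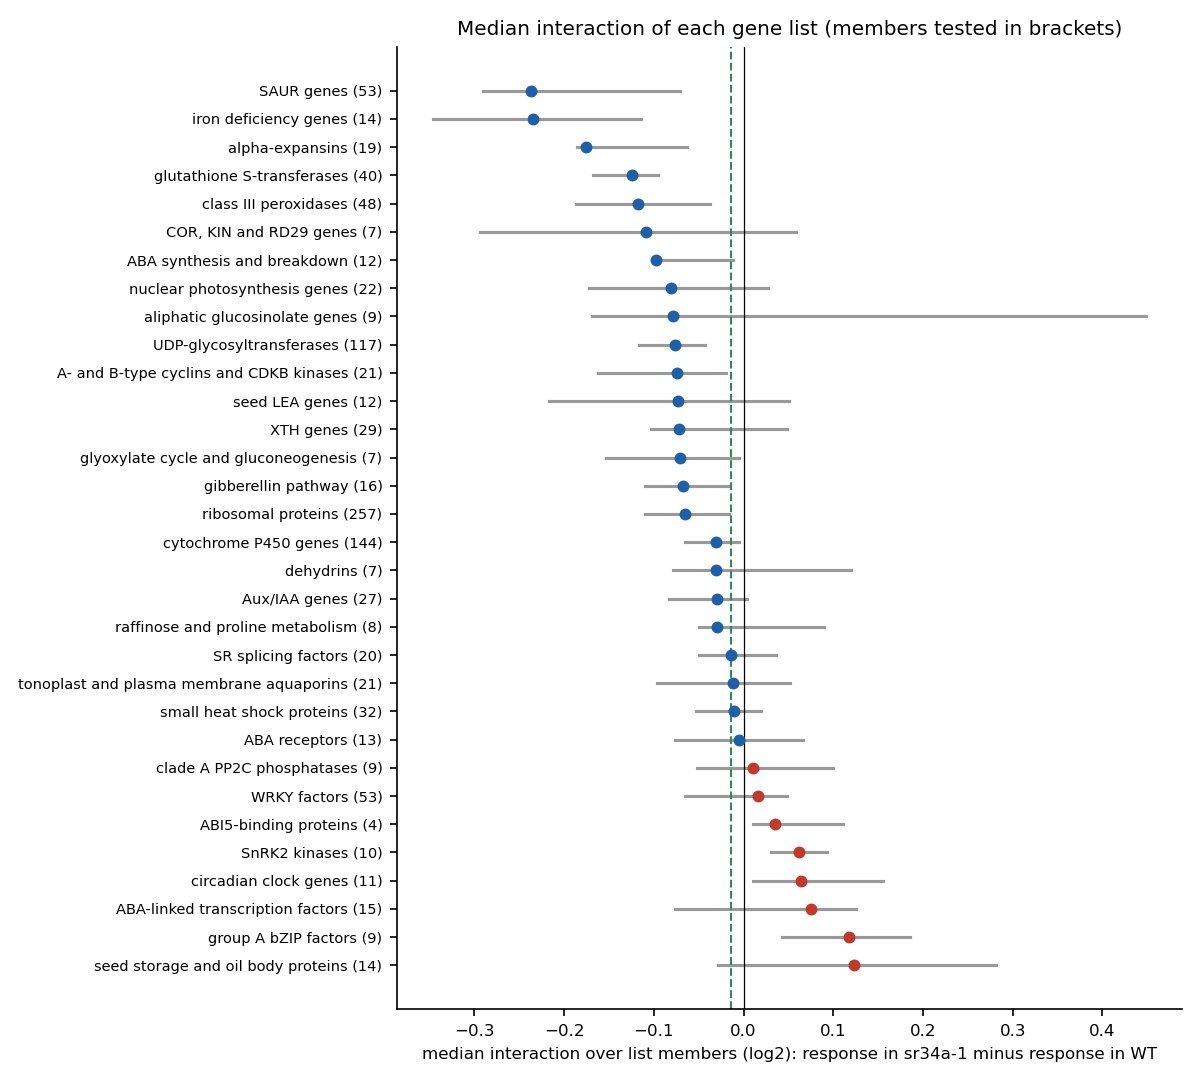
Median interaction over the tested members of each gene list (points; log2, response in sr34a-1 minus response in WT; number of members in brackets), with the lowest and highest median over 19 alternative analyses (grey lines). The dashed line is the median of all genes, -0.01. SAUR genes, iron deficiency genes, alpha-expansins and glutathione S-transferases are among the lists that lie to its left over their whole range. Group A bZIP factors are among those that lie to its right.

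Read by genotype, 7196 genes (33.9%) differed between sr34a-1 and WT on average over treatments. Of these, 4274 had a larger and 2922 (40.6%) a smaller difference with ABA than in mock. At an unadjusted interaction p under 0.05 there were 453 with a larger and 170 with a smaller difference, where 6.46% of all genes tested had such a p in either direction.

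Splicing was measured as the percent spliced in (PSI), the share of inclusion reads among all reads that inform an event. Of 28000 events in 9973 genes, limma with Benjamini-Hochberg adjustment called 0 (0%) for the interaction, with a smallest adjusted p of 0.692, and 1327 (4.74%) had an unadjusted p under 0.05. That share was 9.87% for 1115 exons, 6.64% for 7048 acceptor sites, 6.54% for 3118 donor sites and 3.26% for 16719 introns. Few events were called for ABA itself, 5 (0.0179%) in WT, 8 (0.0286%) in sr34a-1 and 21 (0.075%) on average over the genotypes, against 614 (2.19%) for the genotype. The 21 had 9 smaller and 12 larger responses in sr34a-1. The median SE of the interaction was 0.88 (log2 ratio of inclusion over exclusion). In simulated data the interaction test recovered 16 and 15 of 50 planted interactions of -1.5 and 1.5 on this ratio. At -3 and 3 it recovered 37 and 43 of 50, so an event without a call can still have changed. The interactions were planted only in events of intermediate PSI and more reads than the test required, so recovery in other events was not measured.

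The event with the smallest p was a pair of acceptor sites 3 bases apart in AT1G61360, a receptor-like kinase of the S-locus lectin family. Its sequence is shown because both sites lie within a few bases, with the AG of each acceptor in capitals, on the minus strand of TAIR10.1, within the span of the coding sequence.
AT1G61360 (chr1:22638751-22638778, minus strand): ttgtacttttggccAGcAGatttgaaga

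The PSI counts use of the first AG, which makes the exon 3 bases longer. It was 16.1, 10.4 and 12.7% in WT mock, 33.3, 16.2 and 22.8% in WT with ABA, 22.2, 22.2 and 11.8% in sr34a-1 mock, and 0, 1.64 and 3.67% in sr34a-1 with ABA, from 42 to 122 reads per library. The sr34a-1 libraries with ABA lay below all 9 others. The interaction was -4.48 ± 0.99 on the log2 ratio (limma, adjusted p = 0.692).

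An intron upstream of the coding sequence of AT3G57630, of the exostosin family, was retained at 32.1, 41.9 and 48.5% in WT mock, 25.9, 29.0 and 20.4% in WT with ABA, 20.2, 20.3 and 18.8% in sr34a-1 mock and 39.3, 26.2 and 43.3% in sr34a-1 with ABA. The order of the treatments was opposite in the 2 genotypes. The intron lies at chr3:21343120-21343545 and had 62 to 124 reads per library. The adjusted p was 0.692 (limma), and the events that follow had 0.692 to 0.86.

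In AT4G26650, an RNA-binding protein, use of an acceptor was 92.0 ± 0.947 and 94.7 ± 0.124% in WT against 98.1 ± 0.898 and 95.4 ± 0.336% in sr34a-1 for mock and ABA (SD, n = 3). In AT1G06620, an oxygenase, a donor site upstream of the one with the longest exon was used at 3.17 and 10.2% in WT, against 9.46 and 7.33% in sr34a-1, and the site of the longest exon, a second listing of the same choice, at 96.8 and 89.8% against 90.5 and 92.3%. The acceptor events of the RNA helicase gene AT2G35920 and of the invertase gene INVE moved between 95.6 and 100% and between 96.4 and 98.9% in group means. A 42-base exon of CYCH1-1, a cyclin of the kinase that activates other cyclin-dependent kinases, at chr5:9773383-9773424, was included at 98.4 ± 0.338 and 91.3 ± 3.17% in WT against 97.2 ± 0.837 and 99.2 ± 1.47% in sr34a-1 (SD, n = 3).

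Of 63 events in 18 SR genes, 0 were called for the interaction or for ABA, 16 were called for the genotype (2.19% of all events were), and 3 (4.76%) had an unadjusted interaction p under 0.05, beside 4.74% of all events. An intron of SR34B, a close relative of SR34A, at chr4:1069273-1069457, was retained at 16.3, 10.6 and 27.2% in WT mock, 5.51, 3.38 and 8.86% in WT with ABA, 3.90, 15.2 and 17.2% in sr34a-1 mock and 24.1, 23.7 and 26.01% in sr34a-1 with ABA, from 29.0 to 82.6 reads as deposited. WT libraries with ABA lay below WT mock and sr34a-1 libraries with ABA above sr34a-1 mock (limma, adjusted p = 0.979).

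**Figure D5:**
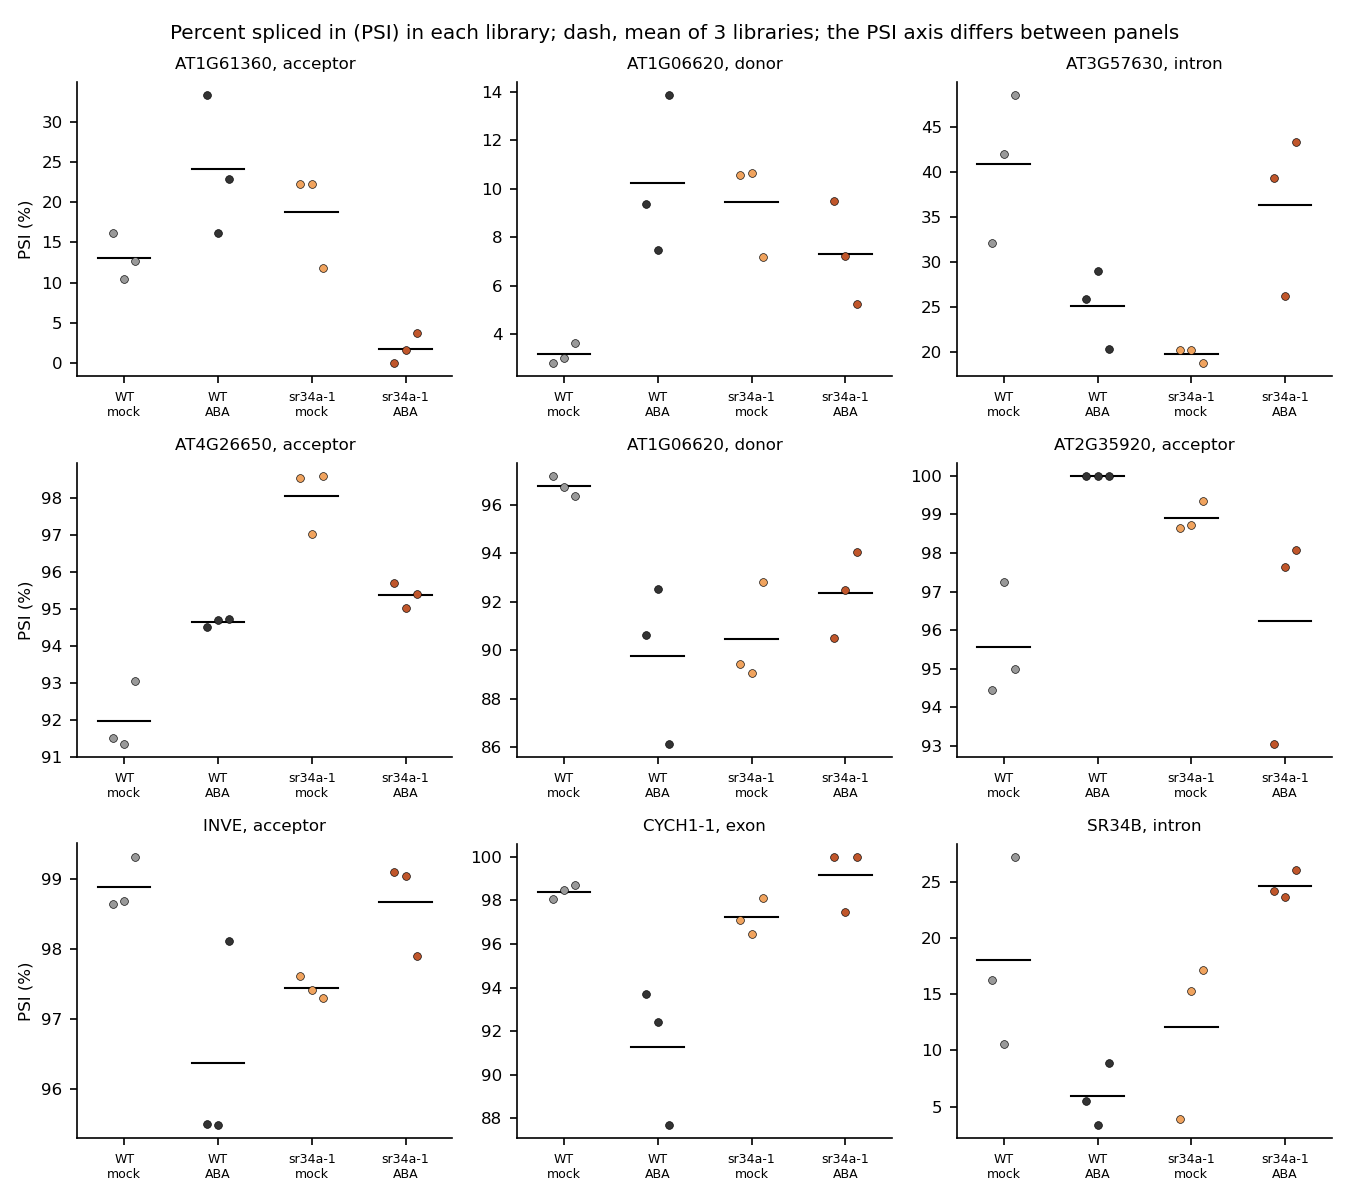
PSI in each of the 12 libraries (points; dash, mean of 3) for the 8 events with the smallest interaction p and the SR34B intron, with a separate PSI axis per panel. In AT1G61360 the sr34a-1 libraries with ABA are at 0 to 3.67% and the other 9 at 10.4 to 33.3%.

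Among the events called for ABA on average, some had close values in both genotypes. An intron upstream of the coding sequence of ALDH7B4, a stress aldehyde dehydrogenase, went from 34.99 ± 2.89 to 55.0 ± 4.35% in WT and from 36.0 ± 2.16 to 56.4 ± 3.65% in sr34a-1 (SD, n = 3), an interaction of 0.02 ± 0.23 on the log2 ratio. An intron of GGH1, a gamma-glutamyl hydrolase, went from 53.1 ± 0.682 to 38.2 ± 3.54% and from 61.3 ± 1.89 to 43.9 ± 2.51%, an interaction of -0.14 ± 0.18. Both passed the limma test in each genotype. Of the 21 events, 2 had an unadjusted interaction p under 0.05, both exons with a smaller change in sr34a-1. The exon of AT4G05040, an ankyrin repeat gene, went from 61.9 ± 2.57 to 40.4 ± 3.12% in WT and from 49.0 ± 2.53 to 43.7 ± 6.43% in sr34a-1, and that of AAE17, an acyl-activating enzyme, from 88.7 ± 0.989 to 96.0 ± 1.64% and from 88.5 ± 1.94 to 91.6 ± 2.46%. These 4 events were picked from the 21 after their values were seen.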

How the data were processed

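Polyadenylated RNA of 12 libraries was measured in 4 groups taken from the sample titles. The authors deposited a table that holds, per the file headers, raw read counts and cRPKM values for each gene; the deposited RPKM values are scaled to length and depth. A second table holds the percent spliced in of each event with its inclusion and exclusion reads, as deposited in the layout of vast-tools. The build is TAIR10, per the submitters' processing notes; aligner, counting tool and strand use are not given in the sources used here. In TAIR10.1, 99.9% of the 88688 introns listed begin with GT or GC and end with AG; its annotation gave gene positions and overlaps.

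Counts were tested in edgeR 4.0.16 by quasi-likelihood (R 4.3.3, TMM, filterByExpr), in a model with 1 mean per group, on 21256 of 32389 genes with counts. CPM use the same factors. For splicing, log2 ratios of inclusion to exclusion reads, 0.5 added to each, were tested with limma 3.58.1 on events with at least 10 reads in each library and a mean PSI of 2 to 98. Of alternative sites the first listed was left out. The threshold was a Benjamini-Hochberg adjusted p of 0.05. DESeq2 1.42.0 and limma-voom were alternatives, beside other size factors, no filter, robust fitting, log2(cRPKM + 1), a replicate block and leaving out each library. Both tests were tried on simulated data. Chi-square values of replicate pairs, per degree of freedom, were 4.29 to 19.98, and every library was counted separately. All sample columns were matched by name.

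Named were the 10 genes with a smaller and the 10 with a larger response of smallest interaction p among genes with an averaged ABA call and a mean log2 CPM of at least 1, the 5 of smallest p without such a call, members of 32 gene lists with p under 0.01, SR34A, KIN1, KIN2 and AIP1, the 8 events of smallest p and SR gene events with p under 0.01. The members and lists were chosen with earlier results of these data known.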

Additional observations from a re-analysis of the deposited data

How the results depend on the processing

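The count of 0 genes for the interaction became 5 without the low-count filter, 35 with DESeq2 and 74 with a replicate block, and 0 to 4 when one library was left out (4 without replicate 1 of WT mock, and 1 without replicate 3 of WT mock or replicate 1 of WT ABA). DESeq2 and the block shared 27 of their genes; LAC7, KIN1, AIP1, GBSS1 and MED37D passed in both, and with the block 28 named genes passed, KIN2, PYL7, ZEP and POX1 among them. Replicate numbers did not pair the libraries by the rule used, which asks every same-numbered pair for a correlation over 0.1. Same-numbered libraries had correlations of deviations from -0.074 to 0.608, with a mean of 0.265 against -0.13 for other pairs. Deviations within a group sum to 0, so the second mean nearly follows from the first and is not a separate result. Of 18 pairs 14 were over 0.1, among them all 6 within a treatment, and the other 4 are pairs numbered 3 across treatments. Of 12 libraries 10 were closest to their own number. This is a hint of shared structure from the data only, and the number of genes called depends on whether the block is fitted. For splicing the correlations were -0.00425 to 0.0262. Of the genes called with the block, 46 had a larger and 23 a smaller response.

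The share of smaller responses among genes higher with ABA moved from 46.5% to 41.8% on log2(cRPKM + 1), 41.3% for differences of CPM and 51.4% for averaged responses of at least 1 log2, and ranged from 39.3% to 48.2% with one library left out. With DESeq2 size factors in edgeR it was 42.3%. Among genes lower with ABA it moved from 37.1% to 41.3% with DESeq2 size factors in edgeR, 41.6% on log2(cRPKM + 1), 41.3% with DESeq2, 41.8% for differences of CPM and 42.1% for responses of at least 1 log2, and ranged from 34.8% to 44.3% with one library left out. For the 330 strongly induced genes, examined this way after the data were seen, the share moved from 60.6% to 43.9% on log2(cRPKM + 1) and 26.4% in CPM, and ranged from 52.1% to 66.1% with one library left out. The cause was not tested.

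The splicing interaction stayed at 0 events in all 17 alternatives. The 21 events for ABA became 16272 without the mean PSI filter, where the log ratio of events with no inclusion reads follows depth by construction, and 13 to 25 with one library left out (13 without replicate 3 of WT mock). Among the 51 named genes, for which alone this was examined, the interactions that changed sign were those of 2. SR34A, near 0 throughout, was at 0.000682 with DESeq2 size factors, 0.00146 on log2(cRPKM + 1), 0.000592 with DESeq2 and -0.0937 to 0.0325 with one library left out. DREB1B, with 0 counts in WT mock, went from -5.06 to 0.00988 on log2(cRPKM + 1). Depth limits genes with few counts, such as DREB1B, and events with few reads.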
